A study of Mus musculus with 2 samples.

Results

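Potassium channel subunit genes outside the A-type (Kcnd) and tandem-pore (Kcnk) groups were followed through RNA sequencing of the mouse cerebellar granule layer. The set holds 56 genes in 13 families, taken by name from a fixed list of voltage-gated, inward rectifier, calcium-activated and sodium-activated subunits and matched by gene ID. They are 56 of 43346 Ensembl gene rows in the deposited tables, and each of the 56 had a row. The study holds 2 laser-captured areas of granule layer, called area 1 and area 2 after their replicate numbers, in 1 group. Both are labelled as tissue of an adult male wild-type mouse, written as B6NCrl in one label and C57Bl6 in another, at an age of 8 months. Each area measured 18000 square microns and the library started from 50 cells. Total RNA was made into 1 Smart-seq library per area, a method that amplifies transcripts from few cells. The areas share a donor label but are numbered as biological replicates, so the SDs below (n = 2) are spreads between areas that may be technical.

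Potassium channels let potassium leave a neuron and so set its resting potential, end its action potentials and space its firing. Voltage-gated (Kv) subunits assemble in fours around a pore, beta and silent subunits change the behaviour or placement of the pore-forming ones, and inward rectifiers (Kir) pass current near rest under the control of G proteins, ATP or polyamines. Cerebellar granule neurons are small, fire in fast bursts to mossy fibre input and are held in check by inhibition from Golgi cells, part of which acts through GABA-B receptors and Kir3 channels.

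Each library held about as many counts as the other, 20532709 expected counts in area 1 and 19939370 in area 2, of which 27080 and 24782 fell on the 56 subunit genes. An expected count is the number of reads assigned to a gene, which may be fractional where reads are shared between genes. Across 16659 genes with a summed count of at least 10, Pearson's r of log2(TPM + 1) between the areas was 0.982, a value across genes, which are not independent replicates. TPM is a level scaled for transcript length and library total, so that it sums to the same figure in every library. The label of the tissue was checked against markers: 10 of 10 granule neuron markers were detected in both areas, with a median of 191 TPM. Markers of other cells were present too, with 9 of 9 astrocyte and Bergmann glia, 9 of 9 oligodendrocyte, 6 of 6 endothelial and 5 of 6 Purkinje cell markers detected in both areas. The Purkinje cell markers, of another neuron type, summed to a mean of 388 TPM. Most of that came from Gng13, Pcp2 and Pcp4, with means of 163, 125 and 90.8 TPM, while Calb1, Car8 and Ppp1r17 had 7.36, 1.945 and 0.505 TPM. With markers of other cells present, the levels below are those of a tissue area and not of granule neurons alone.

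Detection in an area required a level of 1 TPM or more and 5 or more expected counts. Of the 56 subunit genes, 18 were detected in both areas, 32.1%, where 29.2% of all 42462 annotated genes and 50.4% of 21474 protein-coding genes were. Kcnj8, Kcnb2 and Kcnh2 were detected in area 1 and not in area 2, Kcna2 was detected in area 2 and not in area 1, and 34 genes were detected in neither. The median over the 56 genes was 0.255 TPM, against 1.42 TPM over protein-coding genes. By mean level, 10 genes reached at least 10 TPM, 12 lay between 1 and 10 TPM, 23 lay above 0 and under 1 TPM, and 11 had no count in either area. In bulk areas such as these, fewer cells of a type and less RNA per cell cannot be told apart.

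A few genes held most of the subunit transcripts. The summed level of the 56 genes was 439 TPM in area 1 and 422 TPM in area 2. The 10 highest genes made up 89.8% of the mean sum, and Kcnc1, Kcnj3 and Kcna1 together made up 51.3%. In order of mean level the 10 were Kcnc1, Kcnj3, Kcna1, Kcnab1, Kcnmb4, Kcnt1, Kcnj6, Kcnj12, Kcnj9 and Kcnn2. The ranges over both areas did not overlap between any neighbours among the first 8 of these genes, down to the step from Kcnj12 to Kcnj9, and the first neighbours whose ranges overlapped were Kcnj9 and Kcnn2. This order and these shares depend on the gene models. With the deposited counts kept and only the length set to that of GENCODE M21, Kcna1 had a mean of 107 TPM, above Kcnj3 at 54.3 TPM. Reads were not counted again on the M21 models, so this shows only how far the length moves the level. With protein-coding transcripts only, Kcnmb4 at 21.7, Kcnab1 at 19.9 and Kcnt1 at 12.6 TPM were all below the 22.6 TPM of Kcnj6. By family the Kv2 and Kv3 genes held 28.4% of the sum, Kir3 20.7%, the Kv1 alpha genes 11.5%, the Kv beta genes 11.3% and the large-conductance calcium-activated (BK) genes 9.14%.

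**Figure D1:**
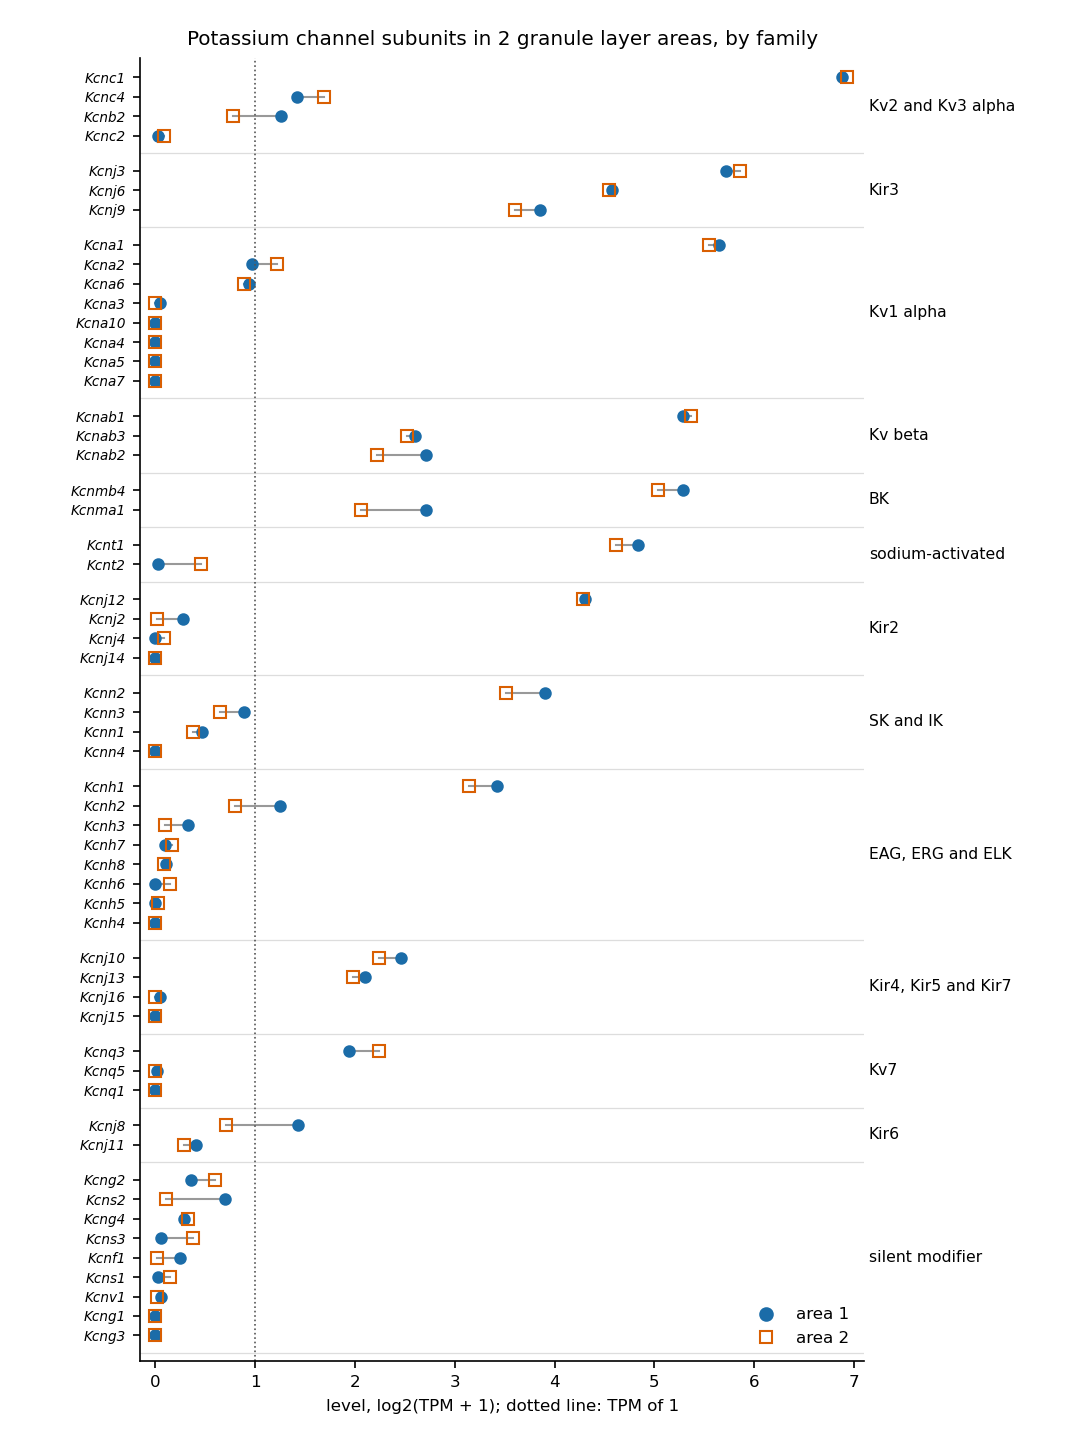
Level of every subunit gene by family, as log2(TPM + 1), with 1 point per area. Most families have 1 gene far above its relatives, led by Kcnc1 at 117 and 121 TPM. Kir3 and Kv beta have 3 of 3 listed genes detected over all transcripts.

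Kcnc1, which encodes a fast Kv3 channel that repolarizes neurons able to fire at high rates, was the highest of all. It lies on the plus strand of chromosome 7 at 46396497 to 46438704 (GRCm38) and had 117 TPM in area 1 and 121 TPM in area 2 (119 ± 2.95 TPM), from 5168 and 4545 counts. That level ranked it 1028 among 21474 protein-coding genes. Kcnc4, its Kv3 relative with fast inactivation, had 1.68 and 2.22 TPM, and Kcnc2 had 2 and 6 counts. Over all transcripts Kcnc1 stood at 69.7 and 54.6 times the level of Kcnc4. Protein-coding transcripts of Kcnc1 alone had 97.7 and 84.5 TPM, while the whole Kcnc4 level was coding, so both ratios are lower for coding transcripts. Kcnb2, a Kv2 delayed rectifier subunit, had 1.40 and 0.72 TPM.

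Among the 8 Kv1 alpha genes, which encode low-threshold channels of axons and terminals, a single gene was detected in both areas. Kcna1 had 48.95 TPM in area 1 and 45.8 TPM in area 2 (47.4 ± 2.22 TPM), from 7441 and 6769 counts, the most counts of any of the 56 genes. Kcna2, its usual partner in mixed Kv1 channels, had 0.96 and 1.32 TPM from 55 and 74 counts. Kcna6 had 0.91 and 0.85 TPM, Kcna3 had 1 and 0 counts, and Kcna4, Kcna5, Kcna7 and Kcna10 had none. The Kcna1 level was 51.0 times that of Kcna2 in area 1 and 34.7 times in area 2. These ratios depend on the gene model: the deposited length of the Kcna1 transcript is 8970 bases against 4031 in GENCODE M21, and that of Kcna2 is 3456 against 11582. With the later lengths and the deposited counts the means became 107 TPM for Kcna1 and 0.333 TPM for Kcna2. Reads were not counted again on the later models, so these values do not settle the size of the gap.

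Each of the 3 Kv beta genes, whose products bind the inner face of Kv1 channels and alter their gating and transport, was detected in both areas. Kcnab1 had 38.1 and 40.4 TPM (39.3 ± 1.58 TPM). Kcnab2 had 5.57 and 3.67 TPM, and Kcnab3 had 5.07 and 4.74 TPM. Coding transcripts of Kcnab3 had 0.15 and 0.71 TPM, under the 1 TPM needed for detection in both areas. Its detection thus held over all transcripts and not for coding ones. Kcnab1 thus stood at 0.779 and 0.881 times the level of Kcna1, and above Kcnab2 by 6.85 and 11.0 times. The first ratio also depends on the gene models. Kcna1 had 107 TPM with the M21 length and unchanged counts, and the coding transcripts of Kcnab1 had 19.9 TPM. Of 8 genes for other parts of the Kv1 complex, 8 were detected in both areas, and the highest was Adam22, a membrane protein that binds LGI proteins, with 100 and 105 TPM. In that list 2 genes were higher in area 1 beyond counting error (23.9% of all genes tested were), 3 were higher in area 2 (23.7% of all genes) and 3 were within it.

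The 9 listed silent modifier genes encode subunits that form no channel alone and alter Kv2 channels, and 0 of the 9 were detected. Kcng2 had the highest mean, with 0.28 and 0.51 TPM from 13 and 23 counts. Kcns2 had 0.62 and 0.08 TPM from 45 and 6 counts, a range that overlaps that of Kcng2, so their order is not settled. Kcng1 and Kcng3 had no count. For the 11 genes with no count in either area, the level that 3 counts would give, the limit a count of 0 allows, was written for each library, and for Kcng1 it was 0.0792 and 0.0814 TPM.

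Of 8 EAG, ERG and ELK genes, Kcnh1 alone was detected in both areas. It encodes an EAG channel, a slowly opening voltage-gated channel of neurons, and had 9.71 and 7.82 TPM (8.77 ± 1.34 TPM). Kcnh2, the ERG channel best known from the heart, had 1.38 and 0.74 TPM. Kcnh4 had no count. Among the 3 listed Kv7 genes, Kcnq3, a subunit of the M-current that damps repetitive firing, had 2.84 and 3.72 TPM (3.28 ± 0.622 TPM). Kcnq5 had 1 and 0 counts, and Kcnq1 had none. The 2 anchors of the axon initial segment measured, where Kv7 channels gather, were both detected, with Ank3 at 251 and 234 TPM.

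All 3 listed Kir3 genes, which encode channels opened by G protein beta-gamma subunits after GABA-B receptor activation, were among the 10 highest. Kcnj3 had 51.8 and 56.9 TPM (54.3 ± 3.61 TPM). Kcnj6, a subunit able to form channels alone, had 22.9 and 22.4 TPM (22.6 ± 0.396 TPM). Kcnj9 had 13.5 and 11.2 TPM (12.3 ± 1.63 TPM). The order Kcnj3, Kcnj6, Kcnj9 held in both areas, with Kcnj3 at 2.26 and 2.54 times Kcnj6 and Kcnj6 at 1.70 and 2.00 times Kcnj9. Of 5 genes for GABA-B receptor subunits and Kir3 regulators, 5 were detected in both areas. The receptor subunit genes were Gabbr1, with 30.2 and 30.0 TPM, and Gabbr2, with 19.3 and 15.7 TPM. The highest of the 5 was Gnb5, a G protein beta subunit listed as a regulator, with 66.5 and 64.8 TPM.

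In the Kir2 family, of strong rectifiers that hold the resting potential, Kcnj12 had 18.8 and 18.5 TPM (18.7 ± 0.198 TPM). Kcnj2 had 19 and 1 counts, Kcnj4 had 0 and 2, and Kcnj14 had none. Kcnj10, the Kir4 channel by which glia take up potassium, had 4.50 and 3.72 TPM, beside 9 of 9 astrocyte and Bergmann glia markers detected with a summed level of 808 TPM in area 1 and 780 TPM in area 2. Its partner gene Kcnj16 had 2 and 0 counts, and Kcnj15 had none. How much of the Kcnj10 level came from glia was not tested.

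Kcnj13, a Kir7 gene of transporting epithelia, had 3.29 and 2.95 TPM. The choroid plexus markers beside it were at or near 0, with 0 of 4 detected, Ttr and Folr1 at 0 counts and a summed level of 0.02 TPM in each area. Kcnj13 lies wholly inside Gigyf2 on the opposite strand, and Gigyf2 had 115 and 108 TPM. Without strand, reads of Gigyf2 that fall on Kcnj13 sequence, such as unspliced ones, cannot be told from reads of Kcnj13. Whether the authors' counting used strand is not given in the sources used here.

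Of the Kir6 genes, which form ATP-sensitive channels with sulfonylurea receptors, Kcnj8 had 1.70 TPM from 61 counts in area 1 and 0.63 TPM from 22 counts in area 2. Kcnj11 had 6 and 4 counts. Abcc8, the receptor of neuronal channels, had 5.48 and 4.73 TPM, and Abcc9, the receptor of mural cells and named after its values were seen, had 0.32 and 0.65 TPM. Mural cell markers, which belong to the vessel cells where Kcnj8 is known, were detected in both areas for 4 of 8 genes, with a summed level of 44.5 TPM in area 1 and 78.3 TPM in area 2. Their sum and Abcc9 were thus lower where Kcnj8 was higher. Of the 8 mural markers 5 were higher in area 2 beyond counting error, 2 were within it and 1, Rgs5 with 27.9 and 19.9 TPM, was higher in area 1. The smooth muscle markers Acta2 and Tagln were at 0 counts in area 1 and at 178 and 106 in area 2. The part of vessel cells in the Kcnj8 level was not tested.

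Among calcium-activated channels the auxiliary gene stood above the pore gene. Kcnmb4, the neuronal beta subunit of BK channels, had 38.0 and 31.9 TPM (35.0 ± 4.30 TPM), and Kcnma1, the pore of the same channel, had 5.55 and 3.18 TPM. The ratio of Kcnmb4 to Kcnma1 was 6.85 in area 1 and 10.04 in area 2. Protein-coding transcripts alone gave Kcnmb4 a mean of 21.7 TPM. Among the 3 listed BK gamma genes 0 were detected, with Lrrc26 and Lrrc52 at 0 counts and Lrrc55 at 0 and 7. Of the small- and intermediate-conductance genes, which sense calcium through bound calmodulin, Kcnn2 had 14.0 and 10.4 TPM (12.2 ± 2.52 TPM). Kcnn3 and Kcnn1 were under 1 TPM in both areas, Kcnn4 had no count, and 3 of 3 calmodulin genes were detected, with Calm2 at 5987 and 6464 TPM.

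The sodium-activated pair was carried by Kcnt1, whose channel opens when sodium builds up during firing. Kcnt1 had 27.6 and 23.5 TPM (25.6 ± 2.92 TPM), and Kcnt2 had 2 and 21 counts. Outside the 56 genes, lists of other channel genes in the same areas give a scale. Of 9 Kv4 genes and partners 7 were detected, with Kcnd2 at 176 and 171 TPM, above Kcnc1 in both areas. Of 10 tandem-pore genes 5 were detected, with Kcnk1 at 148 and 139 TPM and Kcnk5 at 0 counts.

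The areas were then compared by counts. A 2-sided exact binomial test of rounded counts against the library totals, with Benjamini-Hochberg adjustment over 16659 genes at 0.05, asked whether a gene's share of the reads differed by more than counting error. It compares 2 libraries and not conditions, and reads amplified without molecular identifiers are not independent molecules, so intervals and limits here cover counting error only. Of the 56 genes 35 had enough counts to be tested, and 20 were beyond counting error, where 47.6% of all genes tested were. Of these, 15 were higher in area 1 against a background of 23.9%, and 5 were higher in area 2 against 23.7%. Among the 18 genes detected in both areas 11 were beyond counting error, where 47.2% of all genes so detected were. With the counts divided by 10, as if every 10 reads came from 1 molecule, 0 of 21 tested were beyond it, 2 had an unadjusted p below 0.05, and the background was 1.13%.

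The differences were small for the abundant genes and larger for scarce ones. No gene of the 56 was over 2-fold apart in log2(TPM + 1), where 3.19% of genes tested were, and with a pseudocount of 0.1 in place of 1 the number was 7, against 14.1%. Kcnb2 had 355 counts in area 1 and 172 in area 2, and its share of reads in area 2 was 0.502 times that in area 1 (95% interval 0.416 to 0.604, adjusted p = 8.43e-13, exact binomial test). Kcnma1, with 412 and 233 counts, had a ratio of 0.586 (0.497 to 0.690, adjusted p = 6.73e-10, exact binomial test). Kcns2, a silent modifier, had 45 and 6 counts and a ratio of 0.138 (0.0482 to 0.325). In the other direction Kcnq3, with 532 and 672 counts, had a ratio of 1.31 (1.17 to 1.47, adjusted p = 2.15e-05, exact binomial test).

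The widest differences rested on few counts. Kcnj8 had a ratio of 0.374 (0.219 to 0.617) and Kcnh3, with 15 and 4 counts, had 0.276 (0.0668 to 0.867). Kcnh2, with 73 and 38 counts, was less far apart, with 0.539 (0.355 to 0.809). Kcnj2, with 19 and 1 counts, had a ratio of 0.0545 (0.00131 to 0.343), and Kcnf1, a silent modifier with 15 and 1 counts, had 0.0691 (0.00164 to 0.449). Kcnt2 had a ratio of 10.9 (2.66 to 95.7), the only called ratio above 10, and Kcns3, a silent modifier with 2 and 14 counts, had 7.25 (1.67 to 65.8). For the 4 of these genes with fewer than 3 counts in an area, each interval spans more than 10-fold. Kcnh1, Kcnab2 and Kcnj10 were also higher in area 1, with ratios of 0.785, 0.726 and 0.834.

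Among the 10 highest genes the calls went both ways. Kcnj3 and Kcnab1 were higher in area 2, with ratios of 1.10 and 1.09. Kcnc1, Kcna1, Kcnj9 and Kcnn2 were higher in area 1, with ratios of 0.911, 0.943, 0.842 and 0.762. Kcnmb4, Kcnt1, Kcnj6 and Kcnj12 were within counting error. For Kcnc1 the share of counts was lower in area 2 while the TPM was 117 in area 1 and 121 in area 2, because TPM divides by a mean transcript length that was 2674 bases in area 1 and 2348 in area 2. Kcnc1 was the 1 called gene whose TPM lay on the other side.

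Marker lists moved between the same areas. The 5 red blood cell markers summed to 5040 TPM in area 1 and 390 TPM in area 2, the 8 Golgi and other inhibitory neuron markers to 54.1 and 36.5 TPM, and the 9 oligodendrocyte markers to 682 and 936 TPM. The 6 endothelial markers, of which 6 were higher in area 1 beyond counting error, summed to 244 and 193 TPM, and the 6 microglia markers, of which 4 were, to 91.5 and 68.5 TPM. The 6 Purkinje cell markers summed to 353 and 422 TPM and the 4 unipolar brush cell markers to 61.9 and 80.9 TPM. Lists thus moved in both directions. The 10 granule neuron markers summed to 2962 and 3223 TPM. The part of these shifts in the differences between the areas was not tested.

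**Figure D2:**
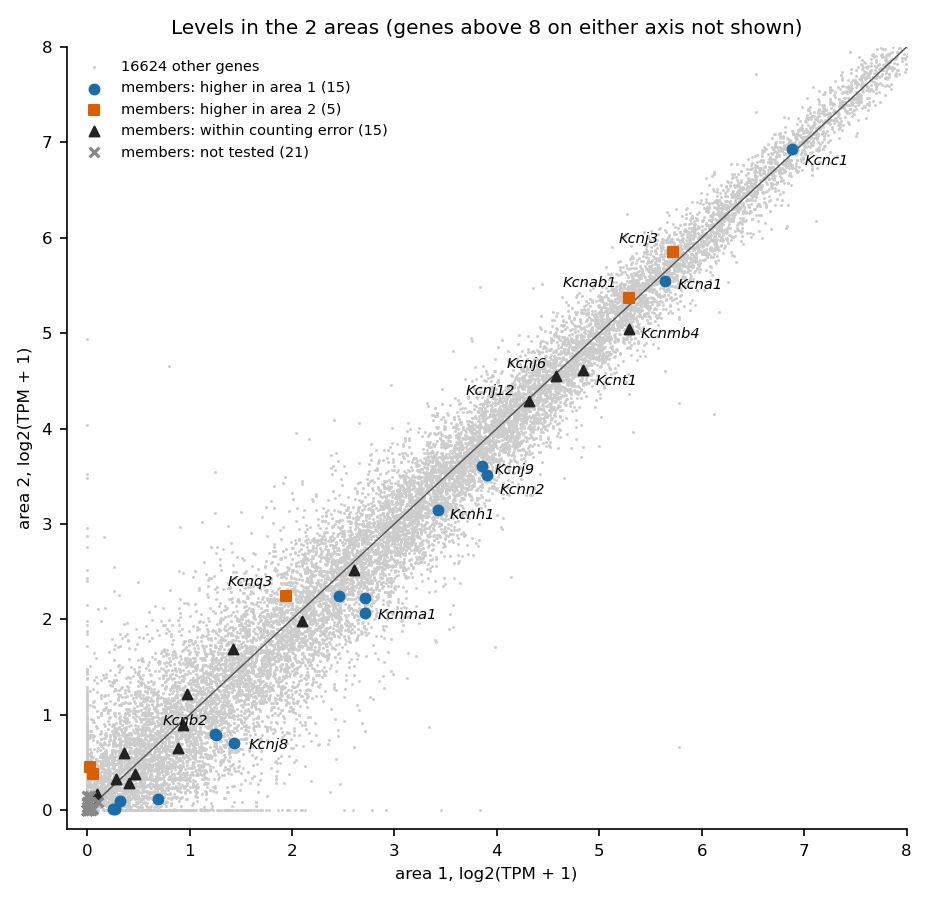
Level in area 1 against area 2, each as log2(TPM + 1), for the 56 subunit genes (coloured by call) and the other genes tested (grey), with the line of equality. The 10 highest subunit genes lie close to the line, and Kcnma1, Kcnj8 and Kcnb2 lie below it.

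**Figure D3:**
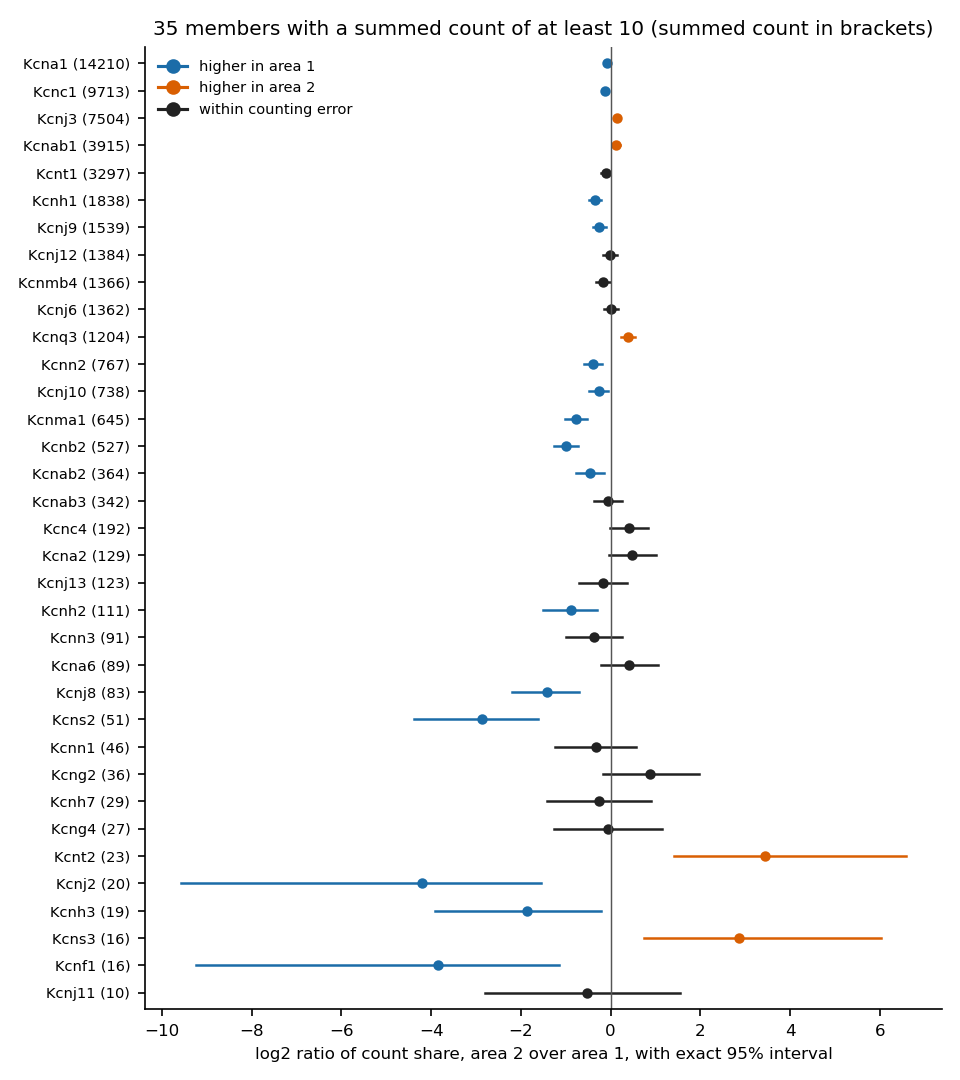
Ratio of each tested gene's share of counts, area 2 over area 1, on a log2 axis, with the 95% interval from counting error. Abundant genes such as Kcnc1 have narrow intervals near the line of no difference, and genes with few counts such as Kcnt2 have wide ones.

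Transcripts of the same gene were then compared by the authors' percent of each gene assigned to each transcript, with names and types from GENCODE M21. Of 10 subunit genes with 2 or more transcripts and a mean of at least 5 TPM, 2 had a different leading transcript in the areas, Kcnab1 and Kcnt1, and 12.1% of 6545 such genes did. Kcnab1-201, a protein-coding form, held 43.4% in area 1 and 57.3% in area 2. Kcnab1-204, a processed transcript with a start further into the gene, held 51.2% and 37.9%. In area 1 the counts of Kcnab1-201 and Kcnab1-204 were 893 and 920, with posterior SDs of 79.4 and 78.3, so which form led there is not settled. Kcnab1 was thus split between a coding and a non-coding form in both areas, and its coding transcripts alone summed to a mean of 19.9 TPM.

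Kcnt1 was split in a like way. Kcnt1-208, a retained intron form, held 50.8% and 41.7%. The coding forms Kcnt1-201 and Kcnt1-203 held 39.9% and 5.47% in area 1, and 0% and 53.9% in area 2. The deposited length is 5881 bases for Kcnt1-201 and 5867 for Kcnt1-203, and the deposited posterior SDs of the Kcnt1-203 count were 223 and 194, beside counts of 149 and 1217, so reads could move between them. Coding transcripts of Kcnt1 summed to a mean of 12.6 TPM.

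The other genes kept their leading form in both areas. Kcnc1-203 held 78.8% and 65.3%, and the short processed transcript Kcnc1-202 held 16.6% and 30.3%. Kcnmb4-201 held 60.3% and 64.3%, with most of the rest in processed transcripts, and the antisense gene Kcnmb4os2 had 14.3 and 14.4 TPM on the other strand. Kcnj3-202 held 88.2% and 90.6%, and Kcnn2-203 held 70.6% and 67.0%, beside the retained intron form Kcnn2-207 with 23.0% and 27.3%. A pair of patterns at lower levels was picked out after their values were seen. Kcnab3-203, a retained intron form, held 97.1% and 85.1% of Kcnab3. Kcnma1-209 held 88.5% of Kcnma1 in area 1 and Kcnma1-201 held 89.3% in area 2, each with 0% in the other area. The posterior SDs of those 0 counts were 33.8 for Kcnma1-201 in area 1 and 36.4 for Kcnma1-209 in area 2. The deposited lengths are 4524 and 4596 bases, so reads could move between these forms too and the change of lead is not settled. On average over the areas, under 50% of the level came from coding transcripts in 2 of 22 subunit genes, Kcnt1 and Kcnab3. These 22 had a mean of at least 1 TPM, and the share was 9.09%, where 15.6% of such protein-coding genes fell under 50%. Kcnt1 was close to the limit, with 45.3% in area 1, 53.9% in area 2 and a mean of 49.6%. Kcnab1, with 43.4% and 57.3% and a mean of 50.4%, lay just above it.

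**Figure D4:**
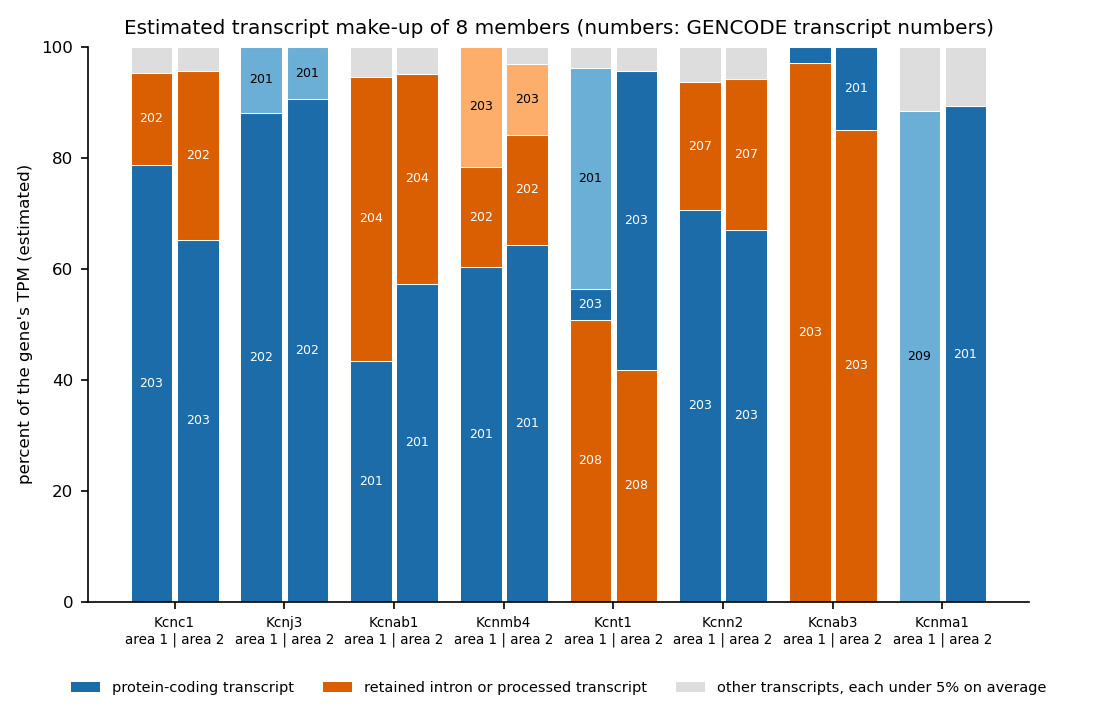
Percent of each gene assigned to its transcripts in area 1 and area 2, as stacked bars from 0 to 100. Blue marks protein-coding transcripts, orange retained intron or processed ones and grey the rest, and numbers are GENCODE transcript numbers. The estimated leading transcript of Kcnab1, Kcnt1 and the less abundant Kcnma1 differs between the areas, though the split of reads among their forms is uncertain.

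The bases before the start sites of 4 of the highest family members differ in their number of CG pairs. Each line holds 250 bases upstream of a RefSeq start, read 5′ to 3′ on the gene's strand in GRCm38.p6, with every CG in capitals. The 2 Kcnab1 windows shown, of 3 in the table, precede a start 370 bases before that of Kcnab1-201 and the start of Kcnab1-204. The Kcnc1 and Kcnj3 windows precede the first starts of the genes, while the leading forms Kcnc1-203 and Kcnj3-202 start further in, at 46397648 and 55437165.
Kcnab1, chr3:65108764-65109013, plus strand: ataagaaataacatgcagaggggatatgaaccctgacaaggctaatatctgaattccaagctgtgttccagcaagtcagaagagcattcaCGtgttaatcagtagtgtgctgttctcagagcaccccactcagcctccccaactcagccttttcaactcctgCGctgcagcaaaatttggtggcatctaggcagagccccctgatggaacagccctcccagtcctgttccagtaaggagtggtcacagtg
Kcnab1, chr3:65187853-65188102, plus strand: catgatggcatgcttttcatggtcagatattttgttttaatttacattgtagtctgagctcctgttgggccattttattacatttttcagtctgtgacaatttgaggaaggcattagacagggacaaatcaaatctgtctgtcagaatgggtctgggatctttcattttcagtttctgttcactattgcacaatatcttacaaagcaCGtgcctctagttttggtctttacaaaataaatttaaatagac
Kcnc1, chr7:46396218-46396467, plus strand: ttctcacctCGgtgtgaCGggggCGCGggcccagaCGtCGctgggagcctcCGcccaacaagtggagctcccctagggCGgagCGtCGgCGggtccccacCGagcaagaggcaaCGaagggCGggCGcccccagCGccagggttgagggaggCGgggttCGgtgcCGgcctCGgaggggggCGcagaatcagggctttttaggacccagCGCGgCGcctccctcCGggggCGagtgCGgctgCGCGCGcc
Kcnj3, chr2:55435720-55435969, plus strand: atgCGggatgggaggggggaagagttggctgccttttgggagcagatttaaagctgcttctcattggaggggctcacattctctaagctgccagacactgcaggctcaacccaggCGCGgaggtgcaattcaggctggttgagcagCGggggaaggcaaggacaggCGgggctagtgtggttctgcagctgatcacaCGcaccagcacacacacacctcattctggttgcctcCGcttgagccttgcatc
Kcnj10, chr1:172340960-172341209, plus strand: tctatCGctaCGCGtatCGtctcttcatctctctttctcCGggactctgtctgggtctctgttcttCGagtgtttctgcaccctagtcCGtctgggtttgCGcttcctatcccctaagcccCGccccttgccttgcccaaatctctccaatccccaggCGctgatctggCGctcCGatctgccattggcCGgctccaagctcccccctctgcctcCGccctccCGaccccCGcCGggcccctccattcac

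The Kcnc1 window holds 30 CG and the Kcnj10 window 17, while the Kcnj3 window holds 7 and the Kcnab1 windows 2 and 1. The Kcnab1 window not shown holds 6 CG. Kcnmb4 has 43, the most of the windows counted, and is not shown because its window lies inside the annotated gene. RefSeq windows of 300 bases, 250 before and 50 after the start, were matched for 42 of the 56 genes by name. A gene was called CpG-rich where at least 1 of its windows had a GC content of at least 50% and an observed over expected CG of at least 0.6. That held for 18 of the 42 genes, 42.9%, and for 50.6% of 16317 protein-coding genes. Among the 13 matched genes detected in both areas 7 were CpG-rich, 53.8%, where 76.5% of detected protein-coding genes were. The motif GGGCGG on either strand was in 28 of 42 genes, 66.7%, against 51.4% of protein-coding genes, and TATAAA on either strand was in 5, 11.9%, against 14.1%. A match describes the letters of the window and not a binding site.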

How the data were processed

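RNA was measured in 2 captured areas of 1 group. Gene and transcript tables were used as deposited. Per the file headers, the authors' expected counts are estimated reads per gene, TPM and FPKM are their length- and depth-normalized levels, the percent column is a transcript's share of its gene, and the score columns are posterior SDs and interval bounds. Build mm10 and annotation GENCODE M4 are stated in the deposited notes; aligner, counter and strand setting: not given in the sources used here. Rows that name no gene held 2.78% and 3.40% of counts and stayed out of totals and tests. Names came from GENCODE M21 (42462 of 43346 IDs matched).

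Members and lists were chosen with earlier results of these data known. Values were given in both areas for members of at least 10 TPM, the highest member of each family, members detected in 1 area or over 2-fold apart, and partners that led their list or were at 0; others are named beside counts or after their values were seen. Expected counts were rounded for the exact binomial test (scipy 1.17.1), which was tested on simulated data. TMM scaling used edgeR 4.0.16 and size factors DESeq2 1.42.0. The biological coefficient of variation over 16659 genes was 0.273. Alternatives were scalings, filters, pseudocounts, posterior means and leaving out an area.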

Additional observations from a re-analysis of the deposited data

How the results depend on the processing

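No paired analysis was possible because the design has 1 group. The number of genes detected in both areas was 18 and became 11 with a minimum of 5 TPM, which by construction asks for more. It was 17 with protein-coding transcripts only. The median of 0.255 TPM became 0.306 with TPM rescaled without mitochondrial genes and Malat1, 0.448 with posterior mean TPM and 0.215 with protein-coding transcripts only, and 0.265 to 0.275 with 1 area left out, and the cause was not tested. The number beyond counting error was 20, stayed 20 with TMM scaling, DESeq2 size factors and posterior mean counts, was 19 with no filter, and fell to 0 with counts divided by 10, where fewer reads widen the counting error. The number over 2-fold apart was 0 and became 7 with a pseudocount of 0.1, namely Kcnf1, Kcnh3, Kcnj2, Kcnj8, Kcns2, Kcns3 and Kcnt2. The number with a different leading transcript was 2 and became 3 with a minimum of 1 TPM, by adding Kcnma1.

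Among single genes, Kcna1 became 107 TPM and Kcna2 0.333 TPM with M21 lengths and unchanged counts. Kcnab1 became 19.9, Kcnmb4 21.7 and Kcnt1 12.6 TPM with coding transcripts only, Kcnj8 0.63 TPM without area 1, and Kcng2 0.835 TPM with posterior means. The alternatives by M21 length and coding transcripts were chosen after seeing the data. Leaving out an area gives no value for counts that need both areas.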

Other observations

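Of the 56 genes, 23 are overlapped by another annotated gene, and 8 by one with a mean of at least 1 TPM, which is on the opposite strand for 7. Kcnq1 had 0 counts in both areas, while Kcnq1ot1, a long RNA read from the opposite strand within the same gene, had 10858 counts in area 1 and 8327 in area 2, or 7.52 and 5.93 TPM. A730090N16Rik, antisense to Kcnab1, had 2.76 and 6.82 TPM from 25 and 60 counts. These genes were picked after their values were seen.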
